A study of Mus musculus with 11 samples.

Results

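Interferon-stimulated genes were followed through 11 RNA-seq libraries of mouse CD4 T cells taken from fibrotic liver. The members are 48 named genes, found in the count table through the Ensembl identifiers that the GENCODE M21 annotation (GRCm38) gives for their symbols. All 48 had an identifier among the 56748 genes of the table, and all 48 passed the low-count filter, which kept 17987 genes. Of the members, 42 are typical of the type I interferon response and 6 are interferon-inducible GTPases of the immunity-related (IRG) and guanylate-binding (GBP) families. The mice had received carbon tetrachloride (CCl4), a hepatotoxin that causes fibrosis, for 5 weeks in both genotypes. In 6 libraries the genotype was ATG5TLymph-/-, in which T lymphocytes lack Atg5, a protein needed to form autophagosomes (Atg5-deficient), and in 5 it was labelled wildtype, which the design text of the series gives as ATG5fl/fl, a floxed gene without deletion (wild-type). Neither the driver of the deletion nor the strain, age and sex of the mice is stated in the labels. The series describes flow-sorted cells, whereas the protocol in the labels describes sections of fixed, paraffin-embedded blocks.

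Interferons are secreted cytokines that act through receptors at the cell surface. Type I interferons (alpha and beta) act through IFNAR1 and IFNAR2 and the kinases JAK1 and TYK2, which activate a complex holding STAT2 and IRF9 that binds the interferon-stimulated response element (ISRE). Interferon-gamma, made by T cells and NK cells, acts through IFNGR1 and IFNGR2 and the kinases JAK1 and JAK2, and leads to binding at the gamma-activated site (GAS). Many target genes respond to both kinds of interferon, and the IRG and GBP GTPases are known above all as targets of interferon-gamma.

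The promoters of 6 members are shown because these genes carry the results that follow: Ifit3, Ifit3b and Isg15 had wide ranges between libraries, Gbp3 and Gbp7 were called by genotype, and Irf1 departed from the pattern of the rest. Each is the stretch of 250 bases before the transcript start in RefSeq (GRCm38.p6), read 5′ to 3′ on the strand of the gene. Capitals mark matches to an ISRE core, GAAA and GAAA with any 2 bases between them, searched on both strands and so also read as TTTC and TTTC, and to a GAS core, TTC and GAA with any 3 bases between them, which reads the same on both strands. Ifit3 (chr19:34583279-34583528, plus strand) and Ifit3b (chr19:34607707-34607956, plus strand) held 2 ISRE core matches each, Isg15 (chr4:156200819-156201068, minus strand) held 3 that overlap, Gbp3 (chr3:142559794-142560043, plus strand) 2 that overlap, and Gbp7 (chr3:142530086-142530335, plus strand) 1, beside 2 GAS core matches. Irf1 (chr11:53769764-53770013, plus strand) held 1 GAS core match and 0 ISRE core matches. A further listed start of Gbp3 and one of Irf1 had no match in the window.
Ifit3: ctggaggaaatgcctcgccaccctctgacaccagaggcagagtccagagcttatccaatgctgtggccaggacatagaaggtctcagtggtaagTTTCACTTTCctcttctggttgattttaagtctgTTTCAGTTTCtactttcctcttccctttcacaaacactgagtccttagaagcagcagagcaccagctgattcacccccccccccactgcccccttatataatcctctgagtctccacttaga
Ifit3b: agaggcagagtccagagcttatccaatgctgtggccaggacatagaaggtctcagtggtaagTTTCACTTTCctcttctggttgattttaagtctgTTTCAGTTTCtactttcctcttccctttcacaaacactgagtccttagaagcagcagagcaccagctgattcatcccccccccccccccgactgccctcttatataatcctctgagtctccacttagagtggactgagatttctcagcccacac
Isg15: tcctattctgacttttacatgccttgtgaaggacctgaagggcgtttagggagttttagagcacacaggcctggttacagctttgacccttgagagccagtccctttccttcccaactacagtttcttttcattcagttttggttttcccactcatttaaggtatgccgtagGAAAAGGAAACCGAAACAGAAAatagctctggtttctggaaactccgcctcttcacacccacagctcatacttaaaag
Gbp3: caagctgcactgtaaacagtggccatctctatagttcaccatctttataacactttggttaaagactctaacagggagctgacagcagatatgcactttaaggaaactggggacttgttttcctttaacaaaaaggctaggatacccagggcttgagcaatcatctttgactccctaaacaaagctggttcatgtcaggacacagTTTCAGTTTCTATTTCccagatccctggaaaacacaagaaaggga
Gbp7: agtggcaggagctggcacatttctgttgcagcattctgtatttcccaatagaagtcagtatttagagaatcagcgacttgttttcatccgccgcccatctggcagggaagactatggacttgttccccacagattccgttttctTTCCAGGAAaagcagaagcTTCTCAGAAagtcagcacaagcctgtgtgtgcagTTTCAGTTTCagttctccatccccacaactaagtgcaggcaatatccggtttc
Irf1: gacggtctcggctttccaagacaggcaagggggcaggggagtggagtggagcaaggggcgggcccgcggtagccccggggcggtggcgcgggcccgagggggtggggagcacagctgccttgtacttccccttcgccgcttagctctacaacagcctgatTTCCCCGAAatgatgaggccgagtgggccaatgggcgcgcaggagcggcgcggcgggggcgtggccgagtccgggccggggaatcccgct

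RefSeq promoters were found for 38 of the 48 members. In the full window of 300 bases, which adds 50 bases after the start, an ISRE core was present in 21 of the 38 genes (55.26%), against 3.993% of all 27025 genes of the promoter table. A GAS core was present in 9 of the 38 (23.68%), against 9.554% of all genes. Of the 6 GTPase genes, 5 held an ISRE core, Ifi47 being the exception, as did 16 of the 32 type I-like genes with a promoter. Ifi35, Ifit2, Irf1 and Isg20 held a GAS core without an ISRE core, and 13 members held neither. The ISRE and GAS matches overlapped in 1 promoter, that of Bst2. The windows of Ifit3 and Ifit3b were 94.2% identical over 274 aligned positions, with the listed start of Ifit3b lying further downstream. A match describes these letters in this window and is not a binding site. Promoters of Dhx58, Ifi27l2a, Mx1, Mx2, Oas2, Parp14, Parp9, Rtp4, Usp18 and Zbp1 were not used here.

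The interferon-stimulated genes had a wide range among the Atg5-deficient libraries, with wild-type values inside it for most members, and a positive log2 fold change by genotype in 40 of 48. Atg5-deficient replicate 5 had the highest level of its genotype in 45 of 48 members and replicate 3 the lowest in 45, and 44 members had both extremes there (91.67%, against 11.89% of all tested genes). The ratio of replicate 5 to replicate 3 had a median of 3.06 over the members and exceeded 2 in 40 of them, while the median over all tested genes was 0.986 and 7.54% exceeded 2. By genotype, Gbp3 and Gbp7 were called higher in the Atg5-deficient libraries with edgeR, but the call of Gbp7 was lost in most fits that left out a library. None of the type I-like members was called with edgeR (0 of 42), where 6.84% of all tested genes were called in either direction. DESeq2 and limma-voom did call a few type I-like members, Oas1a and Phf11b in both. Levels are given as CPM, the reads of a gene relative to the size of its library, scaled by TMM factors that correct for composition. In bulk RNA, fewer cells of a type and less RNA per cell cannot be told apart.

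**Figure D1:**
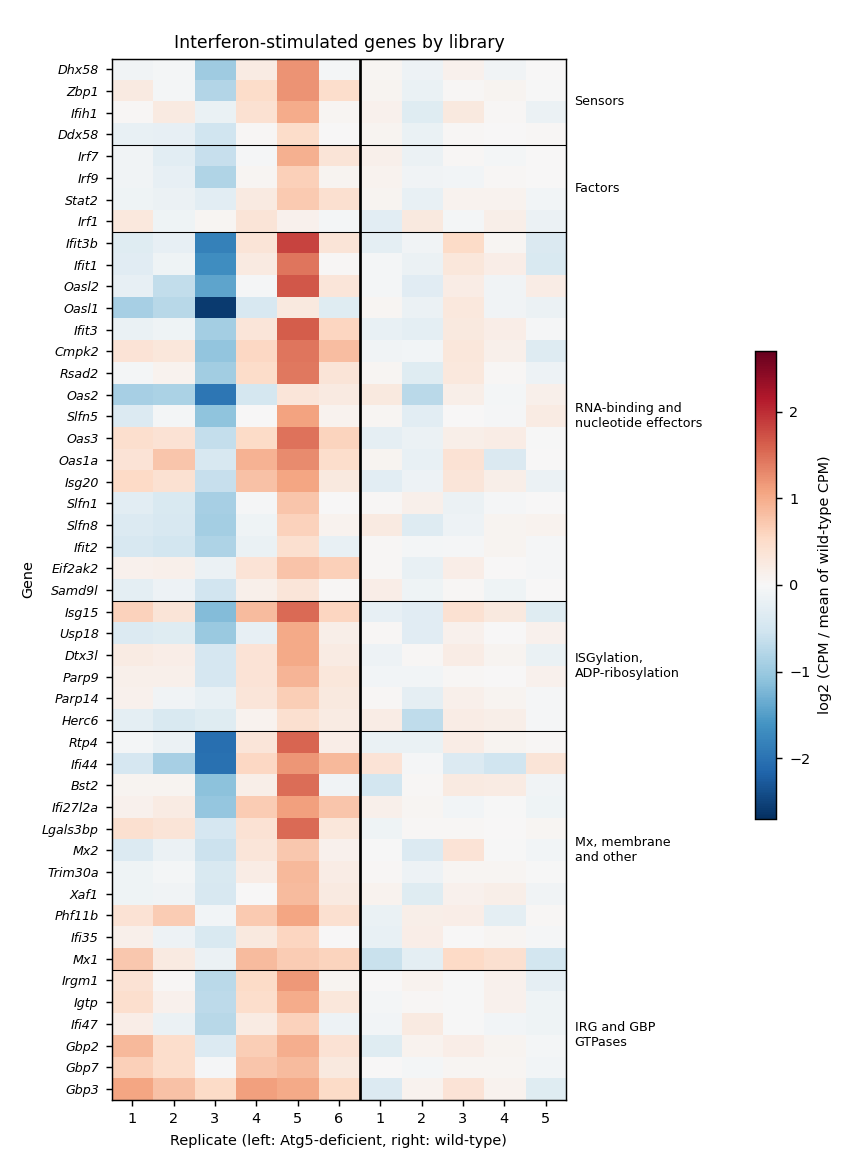
Each of the 48 members (rows, grouped by role) in each library (columns, replicate number), as log2 of its CPM over the wild-type mean, on a colour scale from blue (lower) to red (higher). Among the 6 Atg5-deficient libraries, the column of replicate 5 is the reddest and that of replicate 3 the bluest in nearly every row, whereas the 5 wild-type columns are pale, apart from rows such as Oas2, Herc6 and Mx1.

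Replicate 5 was above every wild-type library in 46 of 48 members, and in 40 of the 42 type I-like members, where 27.5% of all tested genes were. Replicate 3 was below every wild-type library in 39 members, 35 of them type I-like, where 27.2% of all tested genes were. The counts of the other 4 Atg5-deficient libraries lay between those. Replicates 4 and 6 were above every wild-type library in 29 and 27 members, where 25.2% and 22.6% of all tested genes were. They were below every one in 2 and 3 members, under the 22.26% and 21.35% of all tested genes. Replicates 1 and 2 were above in 16 and 10 members and below in 10 and 13, where 24.4% and 26.2% of all tested genes were above and 21.9% and 22.2% below, so that the 10 of replicate 2 lie under that background. Within the wild-type group the range was narrow. The highest wild-type library exceeded the lowest by a median of 1.36-fold over the members, and by more than 2-fold in 1 member, Mx1, against a median of 3.06-fold among the Atg5-deficient libraries. Wild-type replicate 3 was the highest wild-type library in 25 of 48 members and wild-type replicate 2 the lowest in 22, where 21.8% and 29.2% of all tested genes were. The heat map of members by library shows these contrasts row by row. Replicates 3 and 5 are named here because of these values, so the ratio between them is a description and no test was made of it.

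Among the 4 sensors of foreign nucleic acid, Zbp1, which binds Z-form nucleic acids and can start necroptosis, had 72.6 CPM in Atg5-deficient replicate 3, a median of 162 and 290 CPM in replicate 5. Its wild-type libraries had 132, 110, 128, 133 and 125 CPM. The wild-type values thus lay inside the Atg5-deficient range. Dhx58, which encodes the RIG-I-like receptor LGP2, ran from 10.6 through a median of 19.8 to 47.4 CPM against 18.8 to 22.3 CPM in wild-type. Ifih1, which encodes the RNA sensor MDA5, ran from 33.8 to 76.8 CPM against 30.8 to 46.1, and Ddx58, which encodes RIG-I, from 81.7 to 165 CPM against 105 to 125. All 4 were highest in replicate 5 and lowest in replicate 3, and none was called by genotype (log2 fold changes -0.03 to 0.39).

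Of the 4 transcription factor genes, Irf7, the factor that amplifies type I interferon production, had 54.9, 80.5 and 165 CPM as lowest, median and highest Atg5-deficient values. The wild-type libraries had 92.5, 75.9, 85.9, 81.7 and 85.2 CPM, inside that range. Irf9 and Stat2, whose products belong to the complex that binds the ISRE, ran from 65.1 to 178 CPM and from 57.3 to 115 CPM, against 106 to 122 and 60.9 to 75.5 CPM in wild-type. Irf1, a factor induced strongly by interferon-gamma, did not follow them. It had 268, 203, 228, 278, 237 and 212 CPM in Atg5-deficient replicates 1 to 6 and 180, 264, 210, 242 and 196 CPM in the wild-type libraries. Replicate 4 was highest and replicate 2 lowest, and the ratio of replicate 5 to replicate 3 was 1.04, the smallest of the members.

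The 17 RNA-binding and nucleotide effectors had the widest ranges, with a median ratio of replicate 5 to replicate 3 of 4.52, and all 17 had both extremes in those libraries. Ifit3b (ENSMUSG00000062488, chr19:34607970-34613401), of the IFIT family that binds viral RNA ends, had 7.31, 7.88, 2.58, 11.6, 32.4 and 11.6 CPM in Atg5-deficient replicates 1 to 6. Its wild-type libraries had 7.65, 8.63, 13, 9.54 and 7.0 CPM. Replicate 5 stood alone above the rest and replicate 3 alone below, and the other 4 mingled with the wild-type libraries. The ratio of 12.6 was the largest of the members. Ifit1 ran from 8.26 through a median of 25.4 to 71.7 CPM against 19.8 to 32.6 CPM in wild-type, and Ifit3 from 13.6 through 27.8 to 79.3 CPM against 21.1 to 30.7. Ifit3 and Ifit3b share 51.2% and 45.0% of their sequence windows of 50 bases with other genes, mostly each other, so their counts may be mixed. Ifit2 had a smaller range, 41.7 to 99.8 CPM, and 5 wild-type values within 71.6 to 78.2 CPM. In that gene 5 of 6 Atg5-deficient libraries lay below every wild-type library.

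The OAS genes encode enzymes that make an oligoadenylate to activate RNase L, an activity that only some of their OASL relatives have. Oasl2 had 17.3, 12.7, 7.41, 19.7, 63.9 and 25.2 CPM in Atg5-deficient replicates 1 to 6, against 19.4, 16.1, 23, 18.7 and 22.8 CPM in wild-type. Oasl1 lay lower, with 1.38 CPM in replicate 3, a median of 5.54 and 9.93 CPM in replicate 5, and its wild-type libraries had 7.43 to 10.1 CPM. In 5 of its 6 Atg5-deficient libraries the level was thus below every wild-type library. Oas2 had 10.2, 10.4, 4.87, 13.6, 23.7 and 22.4 CPM in Atg5-deficient replicates 1 to 6 against 22.8, 11.4, 21.3, 18.3 and 20.9 CPM, so that 3 of them were below every wild-type library. Oas3 and Oas1a ran from 30.5 to 130 CPM against 39.9 to 54.2, and from 8.92 to 29.2 CPM against 9.14 to 15.9. Oas1a shares 57.6% of its windows of 50 bases with Oas1g, so its counts are uncertain.

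The other effectors repeated that order of libraries. Rsad2, which encodes the antiviral enzyme viperin, ran from 6.38 through a median of 14.3 to 32.9 CPM against 9.79 to 14.8 CPM in wild-type. Cmpk2, its neighbour and a mitochondrial nucleotide kinase gene, ran from 7.10 through 20.5 to 40.5 CPM against 11.6 to 18.4. In both genes replicate 3 was below every wild-type library and replicates 4, 5 and 6 were above. The Schlafen genes Slfn1, Slfn5 and Slfn8, known for roles in T cell quiescence and in restricting translation, reached 262, 336 and 208 CPM in replicate 5 and had 83.9, 74.3 and 71.6 CPM in replicate 3. Eif2ak2, the gene of the kinase PKR that halts translation, Isg20, an exonuclease gene, and Samd9l had ratios of 1.89, 3.23 and 1.80 between those libraries.

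Isg15, the ubiquitin-like protein gene whose product is joined to other proteins, had 12.2, 10.1, 3.52, 14.3, 23.1 and 12.0 CPM in Atg5-deficient replicates 1 to 6. Its wild-type libraries had 6.87, 6.47, 10.6, 9.51 and 6.36 CPM. Replicate 3 lay below every wild-type library, replicate 2 inside their range and the other 4 above it. Usp18, which encodes the protease that removes ISG15 and restrains IFNAR signalling, ran from 9.77 through 16.2 to 39.5 CPM against 15.8 to 21.3 CPM. Of the other genes of this group, Parp9 and Dtx3l, whose products form a complex that modifies histones, had ratios of 2.60 and 2.77 between replicates 5 and 3, and Parp14 of 1.81. Parp9 and Dtx3l share 458 exonic bases on opposite strands, so their reads cannot be fully told apart without the strand setting. Herc6, the mouse ligase for ISG15, had its lowest Atg5-deficient value in replicate 2 (50.7 CPM) and its lowest value of all in wild-type replicate 2 (41.5 CPM). It shares 1269 exonic bases with an overlapping processed transcript on the same strand, so its counts are uncertain.

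**Figure D2:**
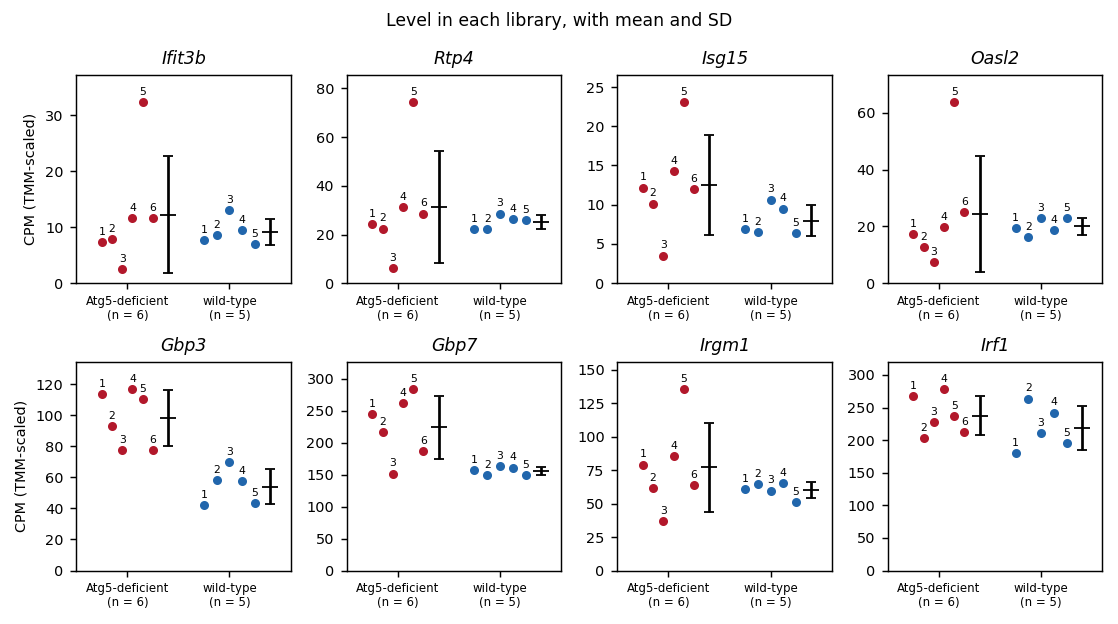
TMM-scaled CPM of 8 members in each library, with the replicate number at each point; horizontal ticks and bars are the mean and SD of each genotype (n = 6 and n = 5). For Ifit3b, Rtp4, Isg15, Oasl2 and Irgm1, Atg5-deficient replicate 5 is the highest point and replicate 3 the lowest, whereas the 6 Atg5-deficient points of Gbp3 all lie above the 5 wild-type points and those of Irf1 mix with them.

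Of the 11 Mx, membrane and other effectors, Rtp4 (ENSMUSG00000033355, chr16:23520291-23614222), which encodes a chaperone of G protein-coupled receptors, had 24.3, 22.4, 6.13, 31.3, 74.5 and 28.6 CPM in Atg5-deficient replicates 1 to 6. Its wild-type libraries had 22.3, 22.2, 28.6, 26.4 and 25.8 CPM. The plot of single members by library shows that 4 Atg5-deficient libraries sat close to the wild-type level while replicates 3 and 5 differed 12.2-fold. Bst2, which encodes tetherin, ran from 8.14 through 18.5 to 49.7 CPM against 12.5 to 20.7 CPM. Lgals3bp, which encodes a secreted glycoprotein, ran from 52.9 through 94.1 to 210 CPM against 66.8 to 75.8 CPM, with 5 of 6 Atg5-deficient values above all wild-type ones. Ifi27l2a had the highest level of the members per kilobase of exon (166 CPM per kilobase) and Ifi44 the lowest (0.319), with 14 counts of Ifi44 in replicate 3, the lowest count of any member. Mx1, the dynamin-like GTPase gene of influenza resistance, had its highest value in replicate 4 (32.0 CPM) and wide wild-type values of 11.7, 14.8, 25.6, 24.0 and 12.5 CPM. Phf11b ran from 27.5 to 61.1 CPM against 24.3 to 33.0 CPM and shares 47.1% of its windows of 50 bases with other genes. In Ifi35, Mx2 (annotated as a polymorphic pseudogene), the TRIM family gene Trim30a and Xaf1, which encodes an antagonist of the apoptosis inhibitor XIAP, the ratios of replicate 5 to replicate 3 were 2.01 (Ifi35), 2.49 (Mx2), 2.43 (Trim30a) and 2.43 (Xaf1).

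The 6 GTPase genes encode proteins that act on the vacuoles of intracellular pathogens. For the next ratio, replicates 3 and 5 were left out after seeing the values. The mean of the other 4 Atg5-deficient libraries was then divided by the wild-type mean. That ratio had a median of 1.36 over the 6 GTPase genes (range 1.03 to 1.85) and of 1.06 over the type I-like members (0.667 to 1.56). The ranges overlap, and no test was made of the difference. Gbp3 (ENSMUSG00000028268, chr3:142560026-142573209) had 77.3, 102 and 117 CPM as lowest, median and highest Atg5-deficient values, and 42.1, 58.0, 69.6, 57.4 and 43.2 CPM in wild-type. Each of the 6 Atg5-deficient values was above all wild-type ones, including replicate 3 with 77.6 CPM. Gbp7 (ENSMUSG00000040253, chr3:142530342-142550149) had 152, 231 and 284 CPM as lowest, median and highest values against 158, 150, 163, 161 and 149 CPM in wild-type. Here replicate 3 lay inside the wild-type range and the other 5 libraries above it. Gbp2 ran from 57.6 through 110 to 147 CPM against 59.1 to 84.1 CPM, with replicate 3 below every wild-type library and the other 5 above. Irgm1 and Igtp, whose products IRGM1 and IRGM3 are regulatory IRG proteins, reached 136 and 275 CPM in replicate 5 and had 36.6 and 84.4 CPM in replicate 3. Ifi47, the gene of the effector IRGD, ran from 49.6 to 128 CPM against 77.3 to 99.8 CPM. Reads of Gbp7 may be shared with a pseudogene in the same cluster, with which it has 637 exonic bases in common, and those of Igtp with Irgm2.

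The comparison of genotypes asks whether the Atg5-deficient label goes with changed levels of interferon-stimulated genes. Autophagy itself was not measured in these libraries. Of the 48 members, 2 were called higher in the Atg5-deficient libraries and 0 lower with edgeR's quasi-likelihood test at an adjusted p under 0.05, where 4.43% of all tested genes were called higher and 2.41% lower. The share of 2 in 48 is near that background. Gbp3 stood at 98.0 ± 18 CPM (SD, n = 6) against 54.1 ± 11.5 CPM (SD, n = 5), a log2 fold change of 0.86 (SE 0.15, edgeR adjusted p = 0.00813). It was the only member whose groups did not overlap. Of all tested genes 4.86% had groups that did not overlap, 2.78% with the Atg5-deficient group higher and 2.08% with it lower. Its call held in each of the 11 fits that left out 1 library. Gbp7 stood at 225 ± 49.3 CPM against 156 ± 6.41 CPM (log2 fold change 0.52, SE 0.13, edgeR adjusted p = 0.0319). That call held only without Atg5-deficient replicate 3 and without replicate 6, with adjusted p from 0.0514 to 0.0749 in the other 9 fits. In the 8 libraries numbered consecutively in their titles (5 Atg5-deficient, 3 wild-type), Gbp3 was called (0.73, edgeR adjusted p = 0.0493) and Gbp7 was not (0.56, adjusted p = 0.127).

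Among the members that were not called, Phf11b was nearest to the threshold, at 43.3 ± 11.3 CPM against 29.0 ± 3.85 CPM (log2 fold change 0.58, SE 0.17, edgeR adjusted p = 0.0512). Gbp2 followed with 110 ± 31.9 against 74.5 ± 9.64 CPM (0.56, SE 0.19, adjusted p = 0.10). Isg15 had one of the largest log2 fold changes, 0.65, but an SE of 0.35. At an unadjusted p under 0.05, 7 members were higher, 4 of them type I-like, and 0 lower, where 12.7% of all tested genes were higher at that p. DESeq2 called 5 members higher, Oas1a and Phf11b of the type I-like genes among them, where it called 8.41% of all genes with an adjusted p higher. limma-voom called 6, with Isg20 added, where it called 10.9% of all genes higher, and both called 0 members lower. These counts too are near their backgrounds. The log2 fold change was positive in 40 of 48 members (83.33%, against 49.7% of all tested genes). Its median was 0.29 over the members, 0.23 over the type I-like genes and 0.44 over the 6 GTPase genes. Over 14 other interferon-inducible GTPase genes, outside the 48, the median was 0.25, close to that of the type I-like members. With limma-voom, which weights libraries by their quality, the median of the members was 0.13 and 32 of 48 were positive. The most negative values were -0.57 for Oasl1, -0.42 for Oas2 and -0.23 for Ifit2, none of them called.

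Leaving out Atg5-deficient replicate 3 raised the number of members called, and leaving out replicate 5 lowered the median log2 fold change. The number called higher without replicate 5 was 1, as it was without Atg5-deficient replicate 1, 2 or 4 or any 1 wild-type library. Without Atg5-deficient replicate 3, 12 members were called higher and 0 lower, Isg15, Oas1a, Oas3, Cmpk2, Eif2ak2, Isg20, Ifi27l2a, Phf11b, Igtp and Gbp2 joining Gbp3 and Gbp7, where 7.96% of all tested genes were called higher. Without replicate 5, the median log2 fold change of the members was 0.01, with 24 of 48 positive. In that fit Gbp3 was called higher and Ifit2 lower (log2 fold change -0.41, edgeR adjusted p = 0.0480), where 3.59% of all tested genes were called higher and 1.93% lower. Leaving out both, a choice made after seeing these values, gave 11 higher members, Lgals3bp among them, and 1 lower, Ifit2, with a median of 0.13, where 6.23% of all tested genes were called higher and 3.23% lower.

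**Figure D3:**
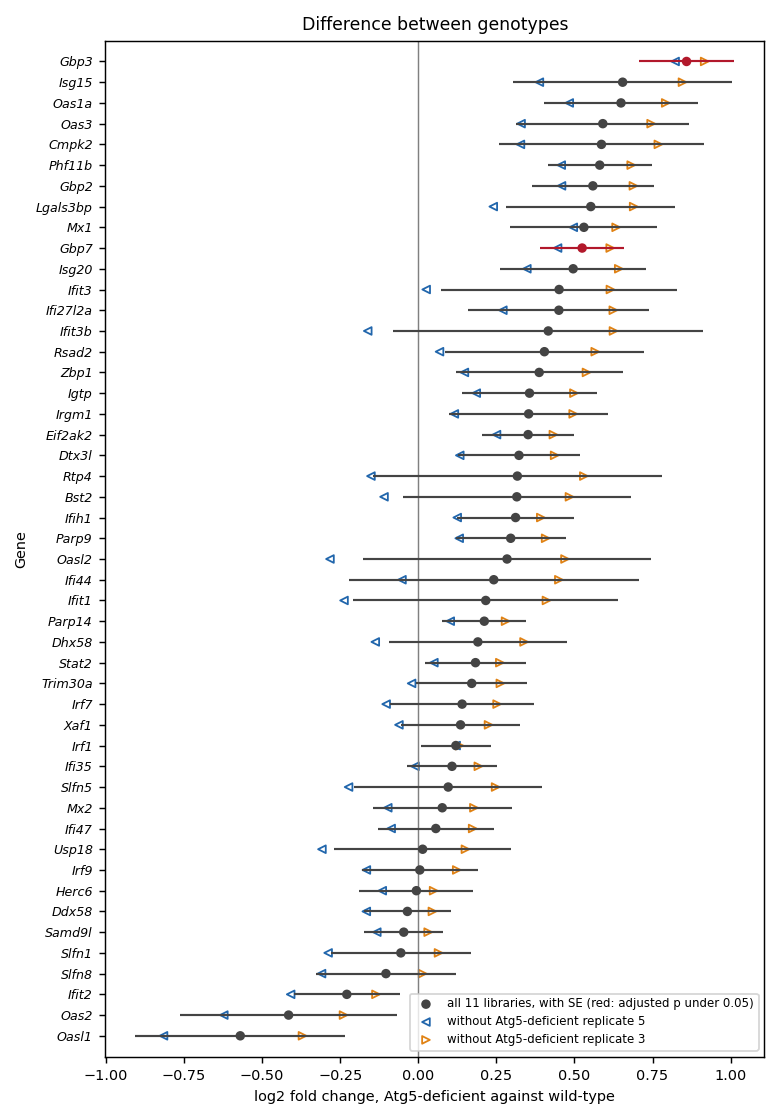
log2 fold change of each member (Atg5-deficient against wild-type) over all 11 libraries as points with SE, red where the edgeR adjusted p was under 0.05, with triangles for the fits without Atg5-deficient replicate 5 (blue, pointing left) and without replicate 3 (orange, pointing right). Gbp3 and Gbp7 are red, and the triangles of Gbp3 lie near its point, whereas for genes such as Oasl2, Ifit3b and Rtp4 the blue triangle lies below 0 and the orange one above the point.

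The spread within a genotype was measured as the SD of log2 CPM over its libraries. For the members it had a median of 0.548 among Atg5-deficient and 0.185 among wild-type libraries, and it was larger in the Atg5-deficient group in 44 of 48 members. Among the 11800 tested genes in the members' range of mean level, the medians were 0.249 and 0.193, and 66.1% had the larger SD in the Atg5-deficient group. Ifit3b (1.18), Ifi44 (1.17) and Rtp4 (1.16) had the largest SD in that group, where the wild-type SD was 0.346, 0.398 and 0.160. Irf1, Gbp3, Mx1 and Herc6 were the 4 members with the smaller SD in the Atg5-deficient group. The median Atg5-deficient SD was 0.404 without replicate 3, 0.399 without replicate 5 and 0.220 without both. These 2 libraries were chosen after seeing the values and are the extremes of most members, so leaving them out had to lower the SD. Leaving out wild-type replicate 2 likewise lowered the wild-type median, to 0.142. The 0.220 is thus not comparable with the wild-type 0.185. Of the type I-like genes 39 of 42 had the larger SD in the Atg5-deficient group, and of the GTPase genes 5 of 6. In 45 of 48 members every library had at least 100 counts. The lowest counts of the other members were 14 for Ifi44, 44 for Oasl1 and 82 for Ifit3b, so that the SD of Ifi44 and Ifit3b rests in part on few reads in replicate 3.

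**Figure D4:**
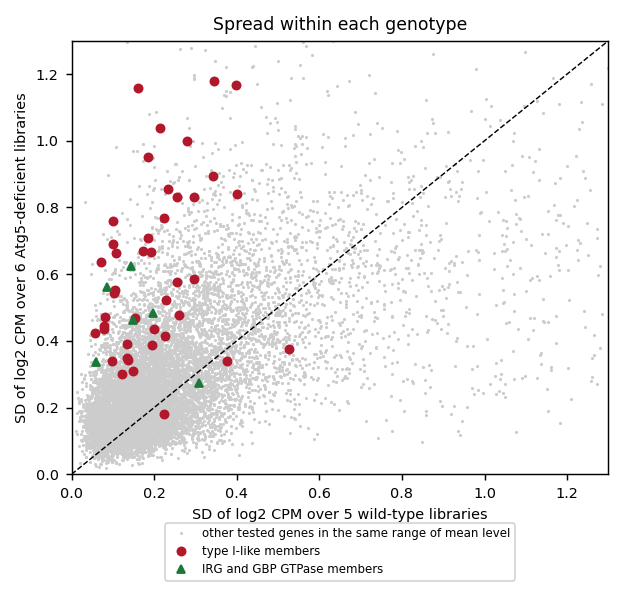
SD of log2 CPM over the 5 wild-type libraries (horizontal axis) against that over the 6 Atg5-deficient libraries (vertical axis), for 42 type I-like members (red circles), 6 GTPase members (green triangles) and the other tested genes in the same range of mean level (grey), with a dashed line where both are equal; grey genes with an SD over 1.3 fall outside the axes. Of the 48 members, 44 lie above the line, with a median of 0.548 on the vertical and 0.185 on the horizontal axis.

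The presence of an ISRE core in the promoter window did not separate the members by that spread. The ratio of replicate 5 to replicate 3 had a median of 3.26 in the 21 genes with an ISRE core (range 1.42 to 12.6) and of 2.77 in the 17 without (range 1.04 to 9.19), so that both sets span most of the members' range.

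The genes upstream of the members did not all follow the same libraries. Of 13 tested genes of nucleic acid sensing, 5 were highest in Atg5-deficient replicate 5 and lowest in replicate 3, against 11.89% of all tested genes. The same held for 3 of 11 JAK, STAT and IRF genes, 1 of 8 feedback inhibitors and 1 of 5 receptor genes. Of 20 genes for type I and type III interferons, 9 had no read in any library, Ifnb1 among them, and the highest count of any of them in 1 library was 6. Their counts summed to 3 in Atg5-deficient replicate 5 and 6 in replicate 3, within 2 to 10 over all libraries. Ifng, the gene of interferon-gamma, had 96.2, 32.3, 26.3, 48.6, 14.4 and 16.8 CPM in Atg5-deficient replicates 1 to 6, against 8.35, 16.4, 18.3, 14.7 and 8.22 CPM in wild-type. The library with the highest interferon-stimulated genes thus had the lowest Ifng of the Atg5-deficient group. Ifng was not called (log2 fold change 1.57, SE 0.51, edgeR adjusted p = 0.0913).

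Of 5 tested receptor genes 0 were called with edgeR, and 1, Il10rb, was higher at an unadjusted p under 0.05. Of all tested genes 6.84% were called in either direction and 12.7% were higher at that unadjusted p. With 5 genes these counts say little about the receptors. Ifnar1 had 127 to 157 CPM against 106 to 143 CPM in wild-type, and Ifnar2 40.2 to 58.3 against 39.0 to 47.5 CPM. The receptor genes for interferon-gamma were highest in replicate 3, with 799 CPM for Ifngr1 and 53.0 CPM for Ifngr2, where the other 5 Atg5-deficient libraries had 300 to 439 CPM and 13 to 26.4 CPM. In replicate 3 low interferon-stimulated genes thus went with high Ifngr1 and Ifngr2. Whether this has a part in the low members was not tested.

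Among 11 other genes of the JAK, STAT and IRF group, those called higher with edgeR were Irf5 (log2 fold change 0.84, SE 0.17, adjusted p = 0.0111), Jak2 (0.41, SE 0.08), Irf4 (0.56, SE 0.13) and Tyk2 (0.35, SE 0.09), 4 of 11, and 0 were lower, where 4.43% of all tested genes were called higher. The kinase gene Jak2 had 213 to 283 CPM against 167 to 205 CPM, without overlap, and its highest value was in replicate 3. Jak1 had 850 to 1016 CPM against 939 to 1033 CPM (-0.14, adjusted p = 0.262). Of 8 feedback inhibitors Ptpn11, the gene of the phosphatase SHP2, was called higher (0.48, SE 0.11), and 1 of 13 other genes of nucleic acid sensing, the exonuclease gene Trex1 (0.54, SE 0.14), shares to be read against the same 4.43%.

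Interferon-stimulated genes outside the 48 were also counted by library. Of 64 other type I-like genes, 41 were highest in replicate 5 and 47 lowest in replicate 3 of the Atg5-deficient libraries, where 21.97% and 27.58% of all tested genes were. Both extremes lay there in 35 of them, against 11.89% of all tested genes, with a median ratio of 1.94, lower than the 3.06 of the members. Of the 64, 7 were called higher and 0 lower, where 4.43% of all tested genes were called higher and 2.41% lower, N4bp1 (0.49, edgeR adjusted p = 0.0135), Sp140 (0.47), Gm4951 (1.41) and Slfn9 (0.64) with the smallest p. Of 14 other interferon-inducible GTPase genes 8 had both extremes in those libraries, and Gbp5, which promotes inflammasome assembly, was called higher (55.3 ± 10.1 against 37.6 ± 4.21 CPM, log2 fold change 0.56, SE 0.12, edgeR adjusted p = 0.0181). Of 16 antigen presentation genes known to respond to interferon-gamma 3 were called higher, Wars, Tap2 and Tap1, with log2 fold changes of 0.54, 0.48 and 0.40, and 0 lower, to be read against the same background of calls. Both extremes lay in replicates 5 and 3 for 11 of these 16 genes, against 11.89% of all tested genes, with a median ratio of 1.78.

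Library properties were set beside these values. Totals ran from 30699408 counts (Atg5-deficient replicate 3) to 47564440, and replicate 5 had the lowest mitochondrial share (4.92%). Markers of CD4 T cells summed to 2748 CPM of all counts in replicate 3, the lowest library, to 3703 in replicate 5 and to 3204 to 4033 in the other 4, against 2764 to 3066 CPM in wild-type. Of the 14 hepatocyte markers 0 were at 0 in every library, and their sum was 218 to 1492 CPM against 171 to 841, with 403 in replicate 5 and 1087 in replicate 3. The 7 markers of plasmacytoid dendritic cells, a known source of type I interferon, summed to 118 CPM in replicate 5 and 121 in replicate 3, inside the Atg5-deficient range of 106 to 163 and above the wild-type range of 81.7 to 104. Runx2 made up most of the sum in the Atg5-deficient libraries, with 63.5 to 113 CPM against 24.1 to 46.2 CPM, whereas Pacsin1 had 23.2 to 37.5 CPM against 32.0 to 53.1 CPM, and Cox6a2 and Klk1 were at most 0.312 CPM in any library. Siglech, a defining marker of plasmacytoid dendritic cells, was at 0 in replicate 5 and reached at most 0.420 CPM in any library. Ccr9, by contrast, had 14.2 CPM in replicate 5, the highest of all libraries. In replicate 3 it had 5.08 CPM, the lowest Atg5-deficient value. Tcf4 had 5.61 CPM in replicate 5 and 6.29 CPM in replicate 3. The 10 macrophage markers summed to 1.33 CPM in replicate 5, the lowest of the Atg5-deficient libraries. With the first principal component of the plasmacytoid, macrophage, B cell and hepatocyte marker sums as a covariate, Gbp3 and Gbp7 were called and no other member was. That component mixes 4 cell types, and its plasmacytoid sum was mostly Runx2 in the Atg5-deficient libraries. How each cell type bears on the members' values was not tested. The part of depth and of the mitochondrial share in the members' values was not tested. Atg5 itself had 15.2 to 22.5 CPM in Atg5-deficient and 13.4 to 21.0 CPM in wild-type libraries (log2 fold change 0.18, edgeR adjusted p = 0.488), and as reads outside the deleted part are counted too, this does not check the genotype labels. Nothing in the labels ties each library to its own mouse, so the p-values rest on the spread between these libraries, which may be technical.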

How the data were processed

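The authors deposited raw read counts for each Ensembl gene in each library. STAR, featureCounts and the build GRCm38 are named in the submitters' processing notes, without versions. RNA was made into libraries with a SMARTer stranded total RNA kit, per the labels' protocols. Their annotation release, strand setting and treatment of multimapping reads were not stated in those notes. Symbols and coordinates were taken from GENCODE M21, which matched 52125 of 56748 identifiers (91.9%), holding 89.3% to 96.5% of the reads of a library. Promoters came from RefSeq (GRCm38.p6). The table had 0 columns of other samples.

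A low-count filter (filterByExpr, with a minimum count of 10 and a minimum total of 15) left 17987 genes. Over all 11 libraries, scaled by TMM factors, genotype was tested with the robust quasi-likelihood F test of edgeR at a Benjamini-Hochberg adjusted p under 0.05. Each SE of a log2 fold change was calculated back from that test, as its absolute value over the square root of F. The SD of log2 CPM used a prior count of 2. Marker sums are CPM of total counts. Totals of 30699408 to 47564440 counts put 3 counts, the limit of detection, at 0.0631 to 0.0977 CPM. No pair of libraries within a group agreed within sampling noise (a chi-square of at least 13.9 per degree of freedom). Replicate numbers follow accession order and pair nothing. Named are all members, up to 4 genes with the smallest p per list of other pathway genes, all called genes where a list had few, and Atg5, Ifng, Ifnb1 and the receptor and kinase genes. One further gene of this rule is not reported here. The members and all lists were chosen with earlier results of these data known. On simulated counts for this comparison (17519 genes) the test recovered 20.9%, 32.8% and 77.3% of genes changed 1.5-fold, 2-fold and 4-fold, with 4 false calls of 91. Alternatives were other scaling factors, DESeq2, limma-voom, other low-count filters, other library sizes, a covariate for other cell types, and libraries left out. The versions used were edgeR 4.0.16, DESeq2 1.42.0 and limma 3.58.1 under R 4.3.3.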

Additional observations from a re-analysis of the deposited data

Results flagged for a closer look

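In 17 of 160 groups examined (80 genes in both genotypes) 1 library stood apart from the others of its genotype by more than Dixon's critical value. The chance rate of about 1 in 20 holds for independent groups. These genes share the same libraries, so whether 17 exceeds chance cannot be read from that rate. Atg5-deficient replicate 5 was the high library for 10 members: Bst2 with 49.7 CPM, Dhx58 with 47.4 CPM, Ifit1 with 71.7 CPM, Ifit3 with 79.3 CPM, Ifit3b with 32.4 CPM, Lgals3bp with 210.5 CPM, Oasl2 with 63.9 CPM, Rtp4 with 74.5 CPM, Slfn5 with 336 CPM and Trim30a with 202 CPM. The next highest library of the genotype had 19.6 CPM for Bst2, 97.9 CPM for Lgals3bp and 31.3 CPM for Rtp4. Among the other pathway genes, the kinase gene Jak1 was also high in replicate 5 with 1016 CPM. Atg5-deficient replicate 3 stood apart with high levels of Ifngr1 (799 CPM), Ifngr2 (53.0 CPM) and Pias2 (39.0 CPM), a gene of the family of STAT inhibitors. No member was set apart as low in replicate 3 by this measure, which compares CPM on a linear scale. Wild-type replicate 2 stood apart for Ifi47 with 99.8 CPM and for the immunoproteasome gene Psmb8 with 255 CPM, and wild-type replicate 1 was low for Lgals3bp with 66.8 CPM.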

How the results depend on the processing

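Against 2 members called higher and 0 lower of 1231 called genes, DESeq2 gave 5 higher members of 2333 called genes. limma-voom gave 6 of 3426, and the 8 libraries from the run of consecutive title numbers 1 of 176. Called genes are counted here in both directions. Of all tested genes 4.43% were called higher in the main fit and 10.9% with limma-voom, and with DESeq2 8.41% of those with an adjusted p. In the 8 libraries 49.43% of the 176 calls, among 18831 tested genes, were higher. Leaving out each library in turn gave 1 to 12 higher members, 0 to 1 lower members and 642 to 2143 called genes. The 12 came without Atg5-deficient replicate 3, where 7.96% of all tested genes were called higher. Without Atg5-deficient replicates 3 and 5 together, chosen after seeing the data, 11 members were higher and 1 lower. Of all tested genes 6.23% were then called higher and 3.23% lower. Upper-quartile factors moved the share of higher calls over all genes from 64.7% to 46.0% and the median of all genes to -0.07, with 36 members positive. The call of Gbp3 held under every alternative run (log2 fold change 0.73 to 0.99). That of Gbp7 was lost in the 8 libraries and in 9 of the 11 fits without 1 library. Phf11b passed with DESeq2, limma-voom, relative log expression factors, no or a strict low-count filter and without mitochondrial, haemoglobin and hepatocyte genes. In each case the cause was not tested.

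Of the members without a call, some changed sign. With upper-quartile factors the log2 fold changes were -0.074 for Irf9, -0.070 for Usp18, -0.0031 for Mx2 and -0.022 for Ifi47. With limma-voom they were -0.036 for Irf7, -0.079 for Irf9, -0.15 for Oasl2, -0.12 for Slfn5, -0.21 for Usp18, -0.035 for Mx2, -0.13 for Ifi44 and -0.0095 for Xaf1. The value was 0.0031 for Herc6 without a low-count filter, and with the strict filter it was -0.018 for Irf9 and -0.012 for Usp18. In the 8 libraries it was 0.0091 for Samd9l and 0.0095 for Herc6, and with the covariate for other cell types 0.014 for Ddx58 and 0.060 for Herc6. Without replicates 3 and 5 it was -0.042 for Irf9, -0.027 for Ifit1, -0.098 for Oasl2, -0.069 for Slfn5 and -0.18 for Usp18.

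Leaving out each library in turn gave ranges that cross 0 for 21 members, also without a call: -0.13 to 0.062 for Herc6, -0.17 to 0.045 for Ddx58, -0.29 to 0.065 for Slfn1, -0.13 to 0.032 for Samd9l, -0.31 to 0.014 for Slfn8, -0.17 to 0.12 for Irf9, -0.14 to 0.34 for Dhx58 and -0.10 to 0.25 for Irf7. For the RNA-binding effectors they were -0.24 to 0.41 for Ifit1, -0.16 to 0.62 for Ifit3b, -0.28 to 0.47 for Oasl2 and -0.22 to 0.25 for Slfn5. For the rest they were -0.31 to 0.15 for Usp18, -0.098 to 0.19 for Mx2, -0.11 to 0.48 for Bst2, -0.011 to 0.19 for Ifi35, -0.052 to 0.45 for Ifi44, -0.15 to 0.53 for Rtp4, -0.021 to 0.26 for Trim30a, -0.062 to 0.22 for Xaf1 and -0.087 to 0.17 for Ifi47. The median SD of the members was 0.220 among Atg5-deficient libraries without replicates 3 and 5, and 0.142 among wild-type libraries without wild-type replicate 2. With 250 bases before the start alone, 47.4% of members held an ISRE core. No paired analysis was possible because the labels give the libraries no replicate numbers and the numbers used here follow accession order. At this depth a gene with 14 counts, the lowest of the members, carries a counting error of 26.7%.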
